A study of Mus musculus with 6 samples.

Results

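The genes described here are the interleukins and interleukin receptors outside the IL-6 and IL-11 group, taken as every protein-coding gene of the deposited table whose symbol starts with Il and a digit, leaving out Il6, Il6ra, Il6st, Il11 and Il11ra1. This gave 77 genes of 49548 in the table, of which 63 entered the fit with 1 normalized count or more in all, 14 were at 0 in every one of the 6 libraries, and 32 averaged 10 normalized counts or more. They were measured in cells sorted as fibroblasts from murine colonic adenomas. These were induced with azoxymethane and dextran sodium sulfate (AOM/DSS), a model of colitis-associated cancer. All mice carried Col6a1-cre and Rosa26-mTmG on the C57/BL6 strain, so that cells with a history of Cre activity are GFP+ and the others stay Tomato+. Cells negative for CD45, EpCAM, CD31 and Ter119 were sorted into GFP+ cells, the Col6a1+ cancer-associated fibroblasts (CAFs; n = 3 libraries), and Tomato+ cells, the Col6a1- CAFs (n = 3 libraries). Both groups therefore share genotype, tumor model and depletion gates, and differ in the reporter color. Col6a1-driven Cre is active in only some stromal cells of the gut, among them pericytes and fibroblasts rich in PDGFRa, the Tomato+ gate holds any remaining lineage-negative cell, each library came from pooled tumors of several mice, and adult mice of both sexes were used in the study, without a statement of which mice stand behind each library.

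Interleukins signal through a few receptor designs. IL-1 family ligands bind a receptor that pairs with an accessory chain and recruits MyD88, and the family includes its own brakes, such as a receptor antagonist and a decoy receptor. Most other interleukins use paired cytokine receptor chains that signal through JAK kinases and STAT factors, with chains such as the common gamma chain shared between many ligands, while IL-17 receptors use a separate adaptor. In the colon, epithelial and myeloid cells are known sources of IL-1 family ligands and stromal cells are known to respond to them.

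The normalized counts summed to between 3039152 and 3425249 per library. Genes with at least 1 count numbered 14530 in Col6a1+ replicate 1 and 18770 to 20511 in the other libraries. Col6a1 itself was at 861, 1287 and 1941 normalized counts in Col6a1+ replicates 1, 2 and 3 and at 182, 321 and 102 in Col6a1- replicates 1, 2 and 3, a log2 difference of 2.82 (limma, adjusted p = 0.00613), so the transcript went with the labels. Cell type markers differed between the groups. Summed pericyte markers ranged from 42545 to 91813 in Col6a1+ CAFs and from 1173 to 2206 in Col6a1- CAFs, with 8 of 8 listed genes called higher, and pan-fibroblast markers ranged from 37468 to 41177 and from 6799 to 13785, with 4 of 6 higher. Epithelial markers ranged from 5237 to 5542 in Col6a1+ CAFs and from 18606 to 30098 in Col6a1- CAFs. Of these 9 genes, 7 were called lower, although EpCAM+ cells were gated out. In each Col6a1- library the epithelial sum was above the pan-fibroblast sum, at 18606, 30098 and 22152 against 13785, 13566 and 6799. Sums of different lists do not give shares of cells. Neutrophil markers ranged from 76 to 238 in Col6a1+ CAFs and from 662 to 1585 in Col6a1- CAFs, with 3 of 6 called lower. Pan-immune markers ranged from 54 to 82 and from 132 to 338, and Ptprc, which encodes CD45, was at 0, 2 and 0 and at 7, 8 and 3. Macrophage and monocyte markers ranged from 99 to 275 and from 171 to 254, and mast cell markers from 0 to 8 and from 41 to 87, with none called by limma in these 3 lists. At an unadjusted p under 0.05 they held 4, 1 and 3 lower, and limma-voom called 1, 0 and 3. The T and innate lymphoid list, which ranged from 784 to 2163 and from 46 to 207, was carried by Thy1, which stromal cells also express. On that list Cd3g was at 0 throughout, Cd3e and Cd2 were at 0 in all Col6a1+ libraries, Cd3d was at 9, 4 and 0 and at 2, 14 and 10, and Trac was at 30, 31 and 39 and at 4, 3 and 0. B and plasma markers stayed between 0 and 42, endothelial markers ranged from 1091 to 1436 and from 178 to 353, enteric glia markers from 55 to 73 and from 29 to 76, and erythroid markers from 110 to 1713 and from 281 to 482. The endothelial sum was carried by Esam, at 943, 971 and 1125 and at 54, 93 and 38, which with Tie1 made 2 of 7 called higher, while the other 5, among them the defining Pecam1 and Cdh5, had negative differences and the list's median was -1.34.

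**Figure D1:**
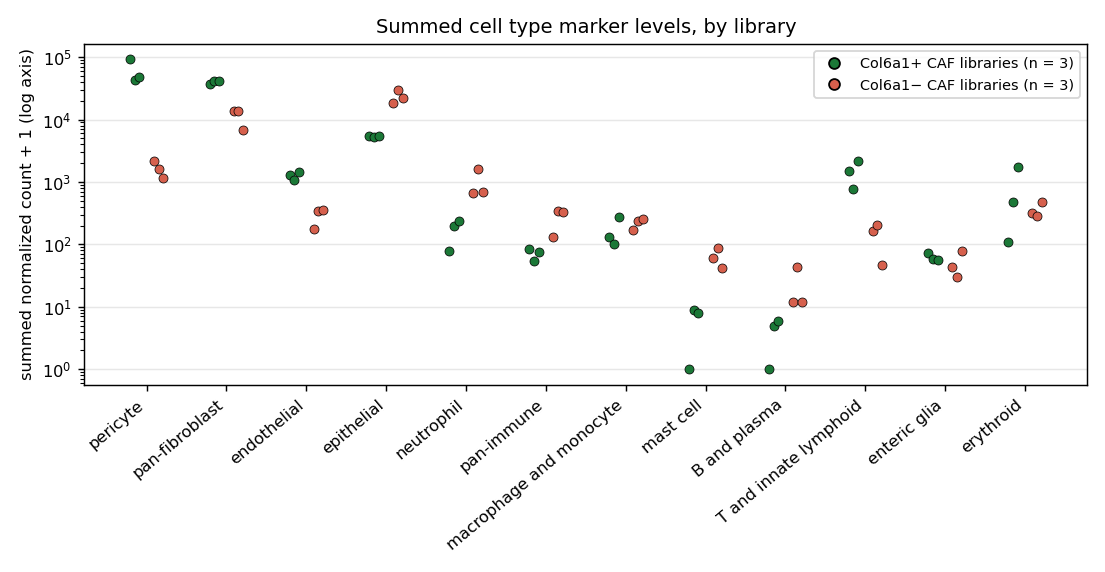
Summed normalized count plus 1 (log axis) of 12 cell type marker lists in each library, green for Col6a1+ CAFs and red for Col6a1- CAFs. Pericyte and fibroblast sums are higher in every Col6a1+ library, and epithelial and neutrophil sums are higher in every Col6a1- library.

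Which interleukin and receptor transcripts differed between the 2 sorted populations was asked by comparing the groups with limma over 26402 genes. Col6a1+ CAFs had higher transcript of the cytokine Il34 and of the receptor chains Il2rg, Il1r1, Il15ra and Il1rl2, and lower transcript of the ligand Il1b. These 6 of 77 genes passed an adjusted p of 0.05 (Benjamini-Hochberg), 5 higher and 1 lower, where 4.62% of all genes tested passed, 2.66% higher and 1.96% lower. All 6 were among the 32 members that averaged 10 normalized counts or more, and 8.82% of all genes at that level were called. The 3 and 3 libraries did not overlap for 24 members, 12 higher and 12 lower. Over all genes tested this held for 19.5%, 7.91% higher and 11.6% lower. Among all genes averaging 10 normalized counts or more it held for 31.7%. An unadjusted p under 0.05 was reached by 16% of all genes, 6.63% higher and 9.4% lower, and limma-voom, an alternative fit, called 6.86% of them, 3.05% higher and 3.81% lower. These shares are the background for the counts by group that follow. The median log2 difference was 0 over the 63 members in the fit and -0.27 over all genes tested. All 6 calls were lost in a model that kept the replicate number as a block, whose values stand beside each gene below. That model called 0 of all 26402 genes, so the loss is not particular to these members. The same block fitted only to genes averaging 10 or more called 9 members and 13.7% of all such genes. In sorted bulk cells, fewer cells of a type and less RNA per cell cannot be told apart. In the values that follow, libraries stand in the order of replicates 1, 2 and 3, a difference is Col6a1+ minus Col6a1- on the scale log2(normalized count + 1), and its standard error (SE) comes from limma.

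**Figure D2:**
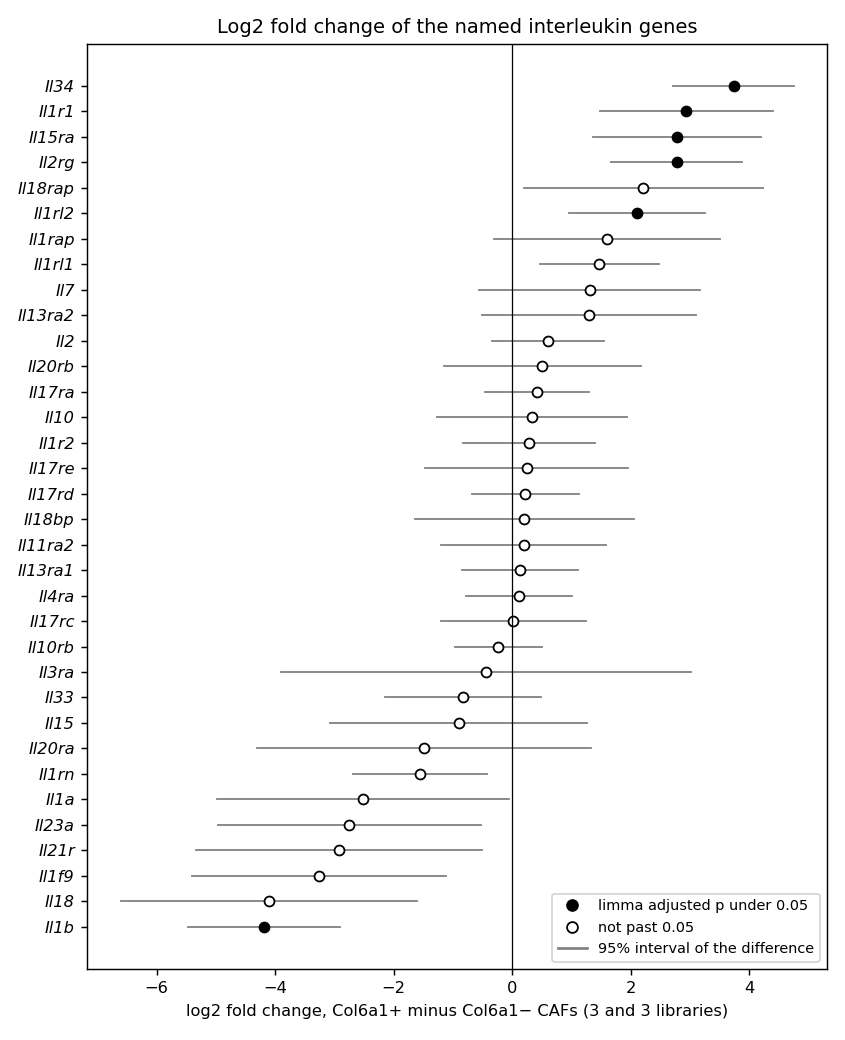
Log2 difference between Col6a1+ and Col6a1- CAFs for the named interleukin genes, with the 95% interval of the difference (lines). Filled points passed an adjusted p of 0.05 in limma: Il34, Il1r1, Il15ra, Il2rg and Il1rl2 lie to the right of 0 and Il1b to the left.

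Il34 encodes a ligand of the colony-stimulating factor 1 receptor that supports macrophages and is not related in sequence to other interleukins. The gene (ENSMUSG00000031750) lies on the minus strand of chromosome 8, mm10 coordinates 110741829 to 110805924. It was at 1907, 1491 and 1247 normalized counts in Col6a1+ CAFs and at 77, 256 and 74 in Col6a1- CAFs. Every Col6a1+ library was above every Col6a1- library, with means of 1548 ± 334 and 136 ± 104 (SD, n = 3 each). The difference was 3.74 (SE 0.46; limma, adjusted p = 0.00195, 0.0612 with the replicate block). Without Col6a1- replicate 1 or 3 the adjusted p was 0.0882 and 0.0672. Of the receptor, Csf1r, there were 0, 3 and 5 normalized counts in Col6a1+ CAFs and 1, 2 and 1 in Col6a1- CAFs, so it was near the lower end of detection in both. Csf1, the other ligand of that receptor, was at 190, 207 and 141 and at 34, 73 and 81. Its groups did not overlap, with a difference of 1.58 that missed the threshold (limma, adjusted p = 0.0698). An antisense gene at the Il34 locus held at most 11 counts in any library.

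Differences of the IL-1 family ligands were negative. Of the 10 genes, Il1b was called lower, none was called higher, and Il1f5 and Il1f10 were at 0 in every library. The other 8 all had negative differences, with a median of -2.09, and for 7 of the 10 the groups did not overlap. Il1f6 and Il1f8 entered the fit only through Col6a1- libraries, so their signs could only be negative. Il1f6 is among the 7 without overlap and among the 6 lower given next. With the minimum mean of 10 normalized counts, 5 ligands were fitted, all negative, with a median of -2.52. At an unadjusted p under 0.05, reached by 9.4% of all genes on the lower side, the fit gave 6 lower and none higher, and limma-voom, with 3.81% of all genes lower, called 3 lower and none higher. The signs of all fitted ligands stayed negative under each scaling, filter, pseudocount and left-out library tried. The epithelial and neutrophil marker sums moved the same way as these ligands, and their part in the result was not tested.

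Il1b encodes the secreted inflammatory cytokine IL-1 beta, which is made as a precursor and cut by caspase-1. The gene (ENSMUSG00000027398) lies on the minus strand of chromosome 2 at 129364570 to 129371139. It was at 4, 12 and 20 normalized counts in Col6a1+ CAFs and at 214, 195 and 196 in Col6a1- CAFs. The Col6a1- libraries lay close together and far above all Col6a1+ libraries, with means of 202 ± 10.7 against 12 ± 8 (SD, n = 3 each). The difference was -4.19 (SE 0.58; limma, adjusted p = 0.00336, 0.0672 with the replicate block). The adjusted p was 0.0977, 0.0674 and 0.0870 without Col6a1- replicate 1, 2 or 3 and stayed under the threshold, at 0.0185 to 0.0313, when a Col6a1+ replicate was left out. The 250 bases upstream of the Il1b start, from RefSeq on GRCm38.p6, are shown with those of the 2 IL-1 family receptors called higher, since these 3 genes of one family were called in opposite directions. Capitals mark a match to the TATA box letters TATAAA on either strand.
Il1b, chr2:129371140-129371389, minus strand: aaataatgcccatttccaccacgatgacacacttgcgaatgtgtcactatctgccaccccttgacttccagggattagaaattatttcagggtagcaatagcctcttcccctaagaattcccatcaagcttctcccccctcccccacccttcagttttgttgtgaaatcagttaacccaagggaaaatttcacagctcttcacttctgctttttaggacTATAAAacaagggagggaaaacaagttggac
Il1r1, chr1:40224830-40225079, plus strand: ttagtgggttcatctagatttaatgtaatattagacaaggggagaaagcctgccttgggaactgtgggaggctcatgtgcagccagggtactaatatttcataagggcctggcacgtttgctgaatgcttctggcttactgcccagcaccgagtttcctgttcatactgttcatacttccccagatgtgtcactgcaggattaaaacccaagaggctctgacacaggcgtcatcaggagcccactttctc
Il1rl2, chr1:40324339-40324588, plus strand: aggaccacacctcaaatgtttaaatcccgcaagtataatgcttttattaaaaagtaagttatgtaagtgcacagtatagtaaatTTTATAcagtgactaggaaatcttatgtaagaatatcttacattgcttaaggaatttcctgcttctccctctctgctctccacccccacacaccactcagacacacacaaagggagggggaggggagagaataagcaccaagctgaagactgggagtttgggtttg
The Il1b window held the letters at position -31 on the gene's own strand, the Il1rl2 window held them at -166 on the opposite strand, and the Il1r1 window held none, where 12.4% of 32817 promoters of the same length hold them on either strand. The AP-1 letters TGANTCA (6.75% of promoters), the NF-kB consensus (7.25%) and the CArG box (1.47%) were in none of the 3 windows. For Il1r1, 2 promoters are listed, and only the window at the gene start given here was searched. Promoter entries matched 60 of the 77 members by symbol, and Il34 was not among them.

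Il1a encodes the second agonist of the same receptor, which also acts without being secreted. It was at 0, 3 and 15 normalized counts in Col6a1+ CAFs and at 21, 16 and 31 in Col6a1- CAFs. The groups came close at 15 and 16, and the difference of -2.52 did not pass (limma, adjusted p = 0.300). Il1rn encodes the receptor antagonist, which occupies the IL-1 receptor without signaling. It was at 132, 371 and 381 and at 393, 1233 and 977. The lowest Col6a1- library lay just above the highest Col6a1+ library, and the difference was -1.55 (limma, adjusted p = 0.133). It passed with the replicate block fitted only to genes averaging 10 or more (adjusted p = 0.00608) and not with the block over all genes (0.0660). Within a library, Il1rn exceeded Il1b on the log2 scale by 4.73, 4.84 and 4.19 in Col6a1+ CAFs and by 0.87, 2.65 and 2.31 in Col6a1- CAFs. This gap is a difference between count scales of 2 genes and not a molar ratio. It restates the Il1b and Il1rn values above, of which Il1b was already called lower, and is not a separate result. Its mean was 4.59 ± 0.35 against 1.95 ± 0.94 (SD, n = 3 each), higher in each Col6a1+ library, and the exact two-sided permutation p of 0.1 is the smallest that 3 against 3 libraries allow.

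Il18 encodes another caspase-1 substrate, made by epithelial cells among others. It was at 1, 111 and 33 normalized counts in Col6a1+ CAFs and at 306, 398 and 314 in Col6a1- CAFs. Groups did not overlap, but the Col6a1+ libraries were far apart, and the difference of -4.10 missed the threshold (limma, adjusted p = 0.0718). It passed after scaling by library size alone (adjusted p = 0.0424), by limma-voom (0.0152) and with the replicate block fitted only to genes averaging 10 or more (0.0226), but not with the block over all genes (0.181). Without Col6a1+ replicate 1 the difference was -2.45 (limma, adjusted p = 0.0624). Il33 encodes an alarmin of stromal and epithelial nuclei and was at 24, 24 and 12 and at 34, 38 and 33. Its libraries did not overlap either, with a difference of -0.84 (95% interval -2.15 to 0.48; limma, adjusted p = 0.559). Il1f9, now called IL-36 gamma, is an epithelial ligand of the Il1rl2 receptor and was chosen after its values were seen. It was at 0, 3 and 1 and at 15, 21 and 19, a ratio of sums of 13.8 in favor of Col6a1- CAFs (95% counting interval 5.08 to 52.2), with an adjusted p of 0.0955 by limma. Il1f6, also an IL-36 ligand, was at 0 in all Col6a1+ libraries and at 3, 1 and 3 in Col6a1- CAFs, and Il1f8 reached 1 count in a single library.

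**Figure D3:**
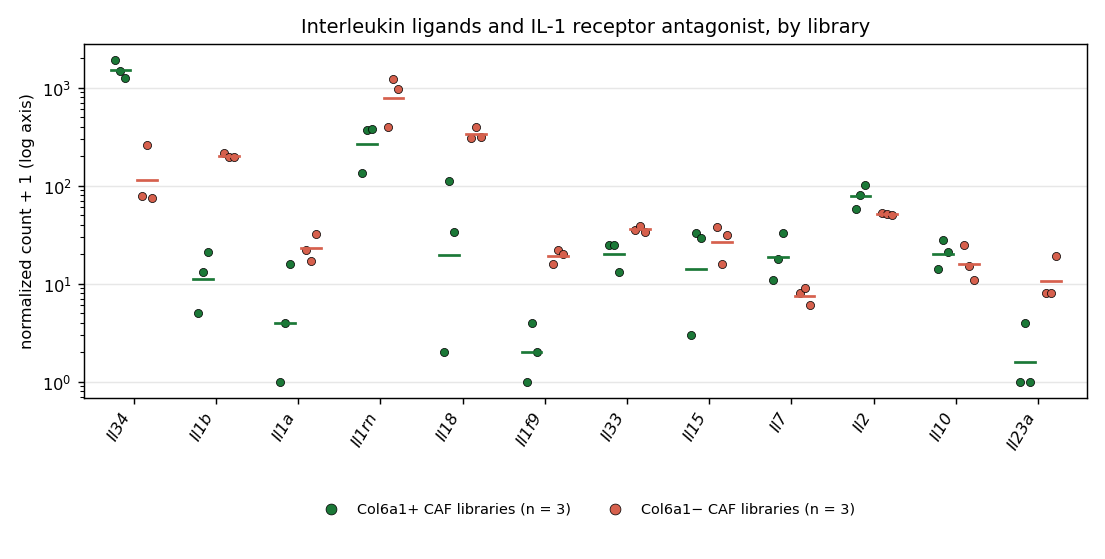
Normalized count plus 1 (log axis) of interleukin ligands and the antagonist Il1rn in each library; points are libraries (n = 3 per group) and short lines the mean on the log scale. Il34 lies between 1247 and 1907 in Col6a1+ libraries and between 74 and 256 in Col6a1- libraries, while Il1b, Il1a, Il1rn, Il18, Il1f9, Il33 and Il23a are higher in every Col6a1- library.

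The receptor side of the IL-1 family had mostly positive differences, 7 positive and 1 negative. Among the 10 genes for receptors and the binding protein, Il1r1 and Il1rl2 were called higher and none lower, 4 did not overlap between groups with Col6a1+ CAFs above and none with Col6a1+ CAFs below, and Il1rapl2 was at 0 throughout. An unadjusted p under 0.05 was found for 4 higher and none lower (6.63% and 9.4% of all genes), and limma-voom called 1 higher and none lower (3.05% and 3.81%). The median over the 9 genes in the fit was 1.47, and it stayed between 1.12 and 1.60 in every alternative. Pericyte and fibroblast marker sums moved with these receptors, and their part in the result was not tested.

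Il1r1 is the signaling receptor of IL-1 alpha and IL-1 beta, and its deletion in Col6a1-expressing cells was part of the study's wider design. The gene (ENSMUSG00000026072) lies on chromosome 1 at 40225080 to 40317257, plus strand. It was at 191, 118 and 84 normalized counts in Col6a1+ CAFs and at 42, 9 and 9 in Col6a1- CAFs. All Col6a1+ libraries were above all Col6a1- libraries, with means of 131 ± 54.7 and 20 ± 19.1 (SD, n = 3 each) and a difference of 2.94 (SE 0.66; limma, adjusted p = 0.0315, 0.0768 with the replicate block). Leaving out any single library ended the call, with an adjusted p between 0.0737 and 0.199, while the difference stayed between 2.59 and 3.64. Il1r2, the decoy receptor that binds IL-1 without signaling, was at 51, 36 and 64 and at 27, 50 and 47. Its groups overlapped, and the difference was 0.29 (95% interval -0.82 to 1.40; limma, adjusted p = 0.760). Within a library, Il1r1 minus Il1r2 on the log2 scale was 1.88, 1.69 and 0.39 in Col6a1+ CAFs. In Col6a1- CAFs it was 0.62, -2.35 and -2.26. This gap restates the Il1r1 and Il1r2 values above and is not a separate result. Replicate 1 of Col6a1- CAFs lay inside the Col6a1+ range, and the means of 1.32 ± 0.81 and -1.33 ± 1.69 (SD, n = 3 each) gave an exact two-sided permutation p of 0.2. Il1rap, the accessory chain these receptors need, was at 27, 31 and 9 and at 7, 7 and 4. Col6a1+ libraries were above the others, with a difference of 1.60 (limma, adjusted p = 0.414).

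Il1rl2 is the receptor of the IL-36 ligands. The gene (ENSMUSG00000070942) is the next gene after Il1r1 among the members on chromosome 1, at 40324610 to 40367562, plus strand. It was at 317, 129 and 109 normalized counts in Col6a1+ CAFs and at 47, 49 and 23 in Col6a1- CAFs. Replicate 1 stood out among the Col6a1+ libraries, but none overlapped the other group, and means were 185 ± 115 and 39.7 ± 14.5 (SD, n = 3 each). The difference was 2.101 (SE 0.52; limma, adjusted p = 0.0468, 0.102 with the replicate block), and each fit that left out a single library missed the threshold (adjusted p 0.0997 to 0.235). Il1rl1, also known as ST2, is the IL-33 receptor and is also made as a soluble decoy, which gene counts do not separate. It was at 778, 389 and 751 and at 424, 135 and 184. The lowest Col6a1+ library fell under the highest Col6a1- library, and the difference of 1.47 (SE 0.45) did not pass (limma, adjusted p = 0.104). With the replicate block fitted only to genes averaging 10 or more it passed (adjusted p = 0.0160). Il18rap, the accessory chain of the IL-18 receptor, was at 25, 22 and 20 and at 1, 6 and 8. Its groups did not overlap, with a difference of 2.21 (limma, adjusted p = 0.250), while the ligand-binding chain Il18r1 had at most 4 counts in any library. Il18bp, the soluble IL-18 antagonist, was at 15, 25 and 28 and at 40, 31 and 5, with overlapping groups and an opposite-strand neighbor, Numa1, whose reads may be shared.

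These receptors and ligands sit in separate gene clusters. The receptor cluster on chromosome 1 spans 40074079 to 40551705 (477.6 kb) and holds Il1r2, Il1r1, Il1rl2, Il1rl1, Il18r1 and Il18rap on the plus strand. Within it, the called genes Il1r1 and Il1rl2 are neighbors and the differences of the flanking members were 0.29 for Il1r2 and 1.47 for Il1rl1. The ligand cluster on chromosome 2 spans 24153161 to 24351494 (198.3 kb) and holds Il1f8, Il1f9, Il1f6, Il1f5, Il1f10 and Il1rn. None of its members was called in either direction by limma, and Il1a and Il1b lie elsewhere on the same chromosome.

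**Figure D4:**
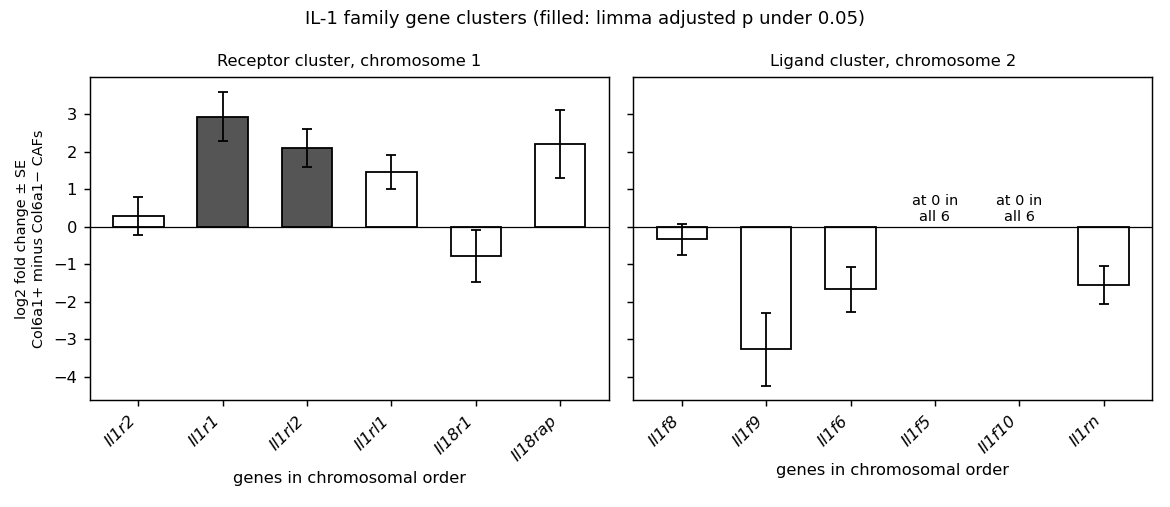
Log2 difference between Col6a1+ and Col6a1- CAFs, with its standard error, for the IL-1 family genes of the chromosome 1 receptor cluster and the chromosome 2 ligand cluster, in chromosomal order. Filled bars (Il1r1 and Il1rl2) passed an adjusted p of 0.05, and the ligand cluster has bars below 0 or genes at 0 in all 6 libraries.

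Receptor chains of the common gamma chain group were the other place where calls fell. Of 10 genes, Il2rg and Il15ra were called higher and none lower, 3 did not overlap with Col6a1+ CAFs above and 1 with Col6a1+ CAFs below, and the median difference was 0.12. An unadjusted p under 0.05 was found for 2 higher and 1 lower, and limma-voom called 1 higher and none lower. Il2rg encodes the common gamma chain shared by the receptors of IL-2, IL-4, IL-7, IL-9, IL-15 and IL-21. The gene (ENSMUSG00000031304) lies on chromosome X at 101264378 to 101268255, minus strand. It was at 398, 153 and 300 normalized counts in Col6a1+ CAFs and at 56, 45 and 21 in Col6a1- CAFs. No Col6a1- library came near the lowest Col6a1+ library, with means of 284 ± 123 and 40.7 ± 17.9 (SD, n = 3 each) and a difference of 2.77 (SE 0.50; limma, adjusted p = 0.0119, 0.0901 with the replicate block). The call held without Col6a1+ replicate 2 (adjusted p = 0.0361) and was lost without any other single library (adjusted p 0.0633 to 0.116). Il2rg is best known from lymphocytes. Of their markers, Cd3e, Cd3g and Cd2 were at 0 in the libraries where Il2rg was high and at 3 or less in the Col6a1- libraries. Cd3d overlapped, at 9, 4 and 0 in Col6a1+ CAFs and at 2, 14 and 10 in Col6a1- CAFs. Trac and Thy1 were higher in Col6a1+ CAFs. Their part in the Il2rg result was not tested.

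Il15ra encodes the chain that binds IL-15 and presents it to neighboring cells. The gene (ENSMUSG00000023206) lies on chromosome 2 at 11705290 to 11734317, plus strand. It was at 196, 74 and 52 normalized counts in Col6a1+ CAFs and at 18, 13 and 8 in Col6a1- CAFs. Col6a1+ replicate 1 was again the highest library, as it was for each member called higher, and it was the lowest for Il1b. It is also the library with the fewest genes detected (14530). Groups did not overlap, and means were 107 ± 77.6 and 13 ± 5 (SD, n = 3 each). The difference was 2.78 (SE 0.64; limma, adjusted p = 0.0347, 0.0793 with the replicate block), and the adjusted p lay between 0.0729 and 0.180 when any single library was left out. The ligand Il15 was at 2, 32 and 28 and at 37, 15 and 30, with overlapping groups (difference -0.90; limma, adjusted p = 0.642). The chains that pair with Il2rg differed in level. Il2ra, Il7r and Il9r reached 2, 6 and 1 counts at most, and Il2rb was at 0, 2 and 1 and at 1, 28 and 4. Il4ra, of the IL-4 receptor, was at 233 or more in every library. Il21r, of the IL-21 receptor, peaked at 6 among Col6a1+ libraries and at 54 among Col6a1- libraries.

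Il4ra, the shared signaling chain for IL-4 and IL-13, was at 233, 612 and 602 normalized counts in Col6a1+ CAFs and at 321, 483 and 435 in Col6a1- CAFs. The groups overlapped, with a difference of 0.12 (95% interval -0.77 to 1.00; limma, adjusted p = 0.889). Its partner Il13ra1 was at 196, 108 and 69 and at 94, 133 and 89, also overlapping (difference 0.13). Il13ra2, a decoy receptor for IL-13, was at 38, 11 and 19 and at 9, 6 and 8, so groups did not overlap and the difference was 1.30 (limma, adjusted p = 0.495). Il21r, the receptor of the T cell cytokine IL-21, was at 6, 0 and 3 and at 10, 19 and 54. It was the receptor of this group whose Col6a1- libraries all lay above, and its difference of -2.92 did not pass (limma, adjusted p = 0.193).

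None of the 7 ligands of this group was called by limma, limma-voom or an unadjusted p under 0.05. Il2, a T cell growth factor, was at 57, 79 and 101 normalized counts and at 52, 50 and 49, and Il7, a lymphocyte survival factor made by stroma, was at 10, 17 and 32 and at 7, 8 and 5. Groups did not overlap for either, with differences of 0.60 and 1.31 (limma, adjusted p = 0.555 and 0.511). The Il7 locus has an antisense gene at 215, 71 and 59 and at 18, 14 and 10, and reads of the pair cannot be told apart without knowing whether counting used strand. Il9 was at 0 throughout, and Il13 had 13 counts in a single Col6a1- library. In the common beta chain group, Il3 and Il5 were at 0, and Il3ra, the IL-3 binding chain, was at 0, 86 and 77 and at 7, 78 and 26. Libraries of both groups spread over that whole range, and the sign of the Il3ra difference (-0.44) depended on which library was left out.

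**Figure D5:**
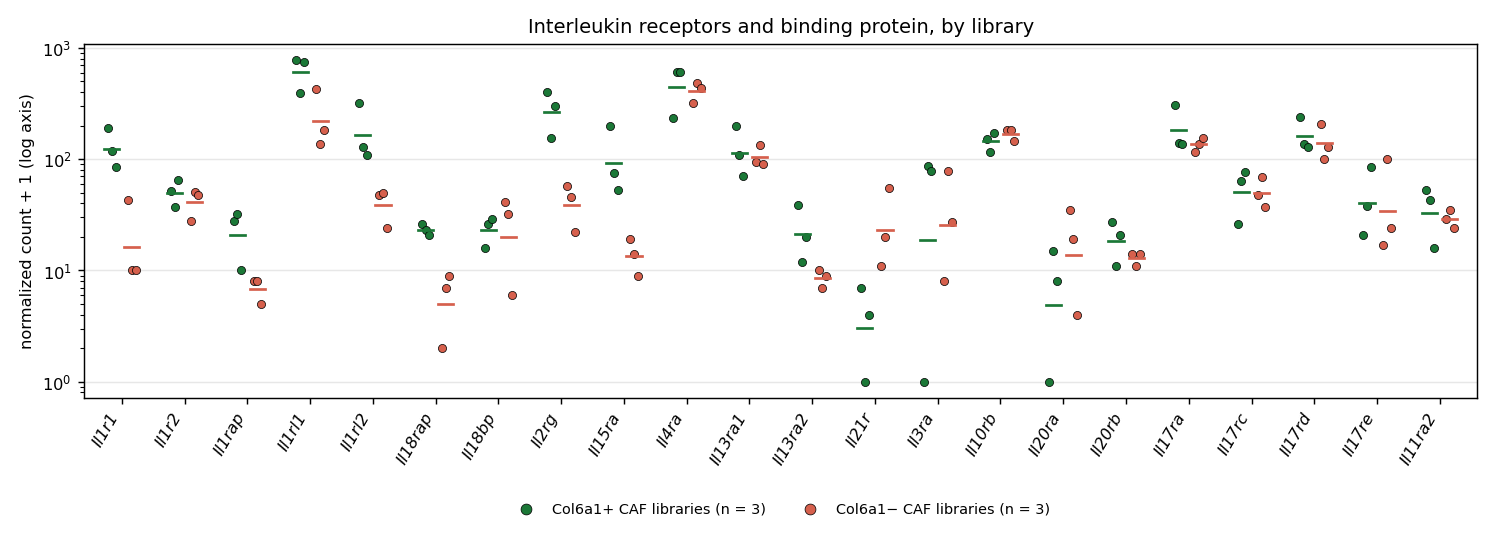
Normalized count plus 1 (log axis) of interleukin receptors and the binding protein Il18bp in each library; points are libraries (n = 3 per group) and short lines the mean on the log scale. Il1r1, Il1rl2, Il1rap, Il18rap, Il2rg, Il15ra and Il13ra2 are higher in every Col6a1+ library, Il21r is higher in every Col6a1- library, and the remaining receptors overlap.

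No gene of the IL-10, IL-12 or IL-17 groups was called by limma. At an unadjusted p under 0.05 there was 1 gene on each side in the IL-12 group, and 1 higher and 2 lower among the IL-17 ligands, and limma-voom called 1 higher in each of these 2 groups, while the IL-10 ligands, IL-10 receptors and IL-17 receptors had none by either measure. The higher gene of the IL-12 group was Il27ra by both measures, and it entered the fit only through Col6a1+ libraries. Among the lower IL-17 ligands, Il17f entered only through Col6a1- libraries. Il10, the anti-inflammatory cytokine, was at 13, 27 and 20 normalized counts and at 24, 14 and 10, with overlapping groups (difference 0.33; limma, adjusted p = 0.812). Its relatives Il19, Il20 and Il24, neighbors of Il10 on chromosome 1, were at 0. Il10rb, a chain shared by the receptors of IL-10, IL-22 and the lambda interferons, was at 151, 115 and 170 and at 182, 183 and 145. This difference was -0.24 (95% interval -0.97 to 0.50), while the ligand-binding chain Il10ra had at most 3 counts in any library. Il20ra and Il20rb, which form a receptor for IL-19, IL-20 and IL-24, were at 0, 14 and 7 and at 34, 18 and 3, and at 26, 10 and 20 and at 13, 10 and 13, overlapping in both cases.

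Il23a, the p19 chain of IL-23, was at 0, 3 and 0 normalized counts in Col6a1+ CAFs and at 7, 7 and 18 in Col6a1- CAFs. The groups did not overlap, the ratio of sums was 10.7 in favor of Col6a1- CAFs (95% counting interval 3.34 to 54.4), and the difference of -2.75 did not pass (limma, adjusted p = 0.182). Il27ra, a receptor chain of IL-27 that was named after its values were seen, was at 9, 2 and 3 and at 0 in every Col6a1- library. Its Col6a1+ mean was 1.56 times a floor of 3 counts per library (limma, adjusted p = 0.123). Only Col6a1+ replicate 1 lay above that floor, and the value has no interval for counting error, so it sets no firm lower bound. Il11ra2, a near copy of Il11ra1 whose reads may be shared with it, was at 52, 42 and 15 and at 28, 34 and 23, overlapping.

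The groups overlapped for all 5 IL-17 receptor chains, of which Il17rb, the IL-25 receptor chain, was at 0, 0 and 4 and at 4, 5 and 4. Il17ra, the common signaling chain, was at 309, 140 and 136 normalized counts in Col6a1+ CAFs and at 116, 136 and 155 in Col6a1- CAFs (difference 0.42). Il17rc, its partner for IL-17A and IL-17F, was at 25, 63 and 76 and at 47, 68 and 36 (difference 0.021). Il17rd, an inhibitor of growth factor signaling as well as an IL-17 receptor family member, was at 240, 135 and 128 and at 208, 99 and 128 (difference 0.22). Il17re, the IL-17C receptor chain, was at 20, 37 and 84 and at 16, 99 and 23 (difference 0.24). The sign depended on the library left out for Il17rc, Il17rd and Il17re, and not for Il17ra. Among the ligands, 3 genes chosen after their values were seen did not overlap, all at low counts. Il17d was at 13, 13 and 4 and at 0, 2 and 0 (ratio of sums 15, 95% counting interval 3.81 to 130; limma, adjusted p = 0.160). Il17c was at 1, 2 and 0 and at 7, 7 and 13 but lies inside a longer gene on the same strand, and Il17f was at 0 in Col6a1+ CAFs and at 8, 1 and 1 in Col6a1- CAFs. Of the remaining members, Il16, a CD4 ligand that was also chosen after its values were seen, was at 0, 3 and 1 and at 10, 10 and 8, with an opposite-strand neighbor whose reads may be shared, and Il4i1, an amino acid oxidase, overlapped at 0, 12 and 13 and at 6, 0 and 1. A further 14 members, among them Il12a, Il12b, Il22, Il17a, Il21 and Il4, had at most 5 counts in any library apart from Il5ra, which reached 15.

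Genes of receptor signaling, of IL-1 processing, and of partner ligands and chains named otherwise were taken from 5 lists holding 55 genes, all of them tested. Limma called 4 higher in Col6a1+ CAFs and none lower (2.66% and 1.96% of all genes), with a median difference of 0.23. At an unadjusted p under 0.05 there were 11 higher and 4 lower (6.63% and 9.4% of all genes), and limma-voom called 5 higher and 1 lower (3.05% and 3.81%). The list of MyD88 and IL-1 receptor signaling gave 1 of 15 higher with a median of -0.030, and JAK, STAT and SOCS genes gave 3 of 19 higher with a median of 0.51. No call came from inflammasome and IL-1 processing (7 genes, median -0.89), IL-17 signaling (6 genes, median 0.015) or partner subunits named otherwise (8 genes, median 0.34), where an unadjusted p under 0.05 gave 0, 2 and 1 higher and 1, 0 and 1 lower, and limma-voom none. All 4 calls were lost with the replicate block, which called 0 of all 26402 genes.

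Peli2, a ubiquitin ligase acting on IRAK kinases, was at 428, 240 and 242 normalized counts in Col6a1+ CAFs and at 71, 80 and 40 in Col6a1- CAFs, without overlap. The difference was 2.24 (SE 0.41; limma, adjusted p = 0.0127, 0.0734 with the replicate block), and 1 of the 6 fits that left out a library kept it. Socs2, a feedback inhibitor of JAK and STAT signaling best known for growth hormone, was at 235, 248 and 262 and at 73, 95 and 52. Its libraries were tight in Col6a1+ CAFs, and the difference was 1.79 (SE 0.36; limma, adjusted p = 0.0189, 0.0905 with the block), also kept in 1 of the 6. Socs3, the feedback inhibitor of STAT3-activating receptors, was at 1657, 1397 and 1151 and at 748, 460 and 350. It was higher in Col6a1+ CAFs by 1.49 (SE 0.33; limma, adjusted p = 0.0303, 0.0708 with the block). Each fit that left out a single library missed the threshold for Socs3 (adjusted p 0.0844 to 0.172). Myd88, the adaptor of the IL-1 receptor family, was at 381, 316 and 209 and at 151, 168 and 94, without overlap and with a difference of 1.13 that did not pass (limma, adjusted p = 0.131). Sigirr, a negative regulator of that family expressed in epithelium, was at 0, 5 and 1 and at 16, 29 and 20, with a difference of -3.27 (limma, adjusted p = 0.108), and was the gene limma-voom called lower (adjusted p = 0.0321).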

How the data were processed

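RNA of the 6 sorted samples was made into 3′ mRNA libraries (QuantSeq), which read transcript ends, and sequenced on an Ion Proton. The authors aligned reads with TopHat2 and then Bowtie2 to mm10, counted them per gene with GenomicRanges and normalized with DESeq through metaseqR. The deposited values are log2(normalized count + 1), and 100% of them gave whole normalized counts (tolerance 1e-06). Use of strand in counting is not given in the sources used here. Another 6 columns of per-sample values and the authors' own p-values and fold columns were not used. Steps in the values put 4 libraries at 2565364 to 3880342 reads, which limits precision at low counts.

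Genes whose normalized counts summed to 1 or more were fitted with limma 3.58.1 (lmFit, eBayes with trend; R 4.3.3), group only, with Benjamini-Hochberg adjustment over 26402 genes. The scripts were tested on simulated data. Fits without a library applied the filter again. Counting intervals (95%, exact) and floors (3 counts) cover counting error only. The members, lists and naming rule were chosen with earlier results of these data known. Members called, with a mean of 10 or more, or set by name (Il1r1, Il1b and Il23a, which the study discusses, and Il1a and Il1rn) were named. Replicates came from pooled tumors, and nothing says that pools share no litter, so p-values measure the spread between these samples. Same-numbered samples deviated together over 13515 genes (r = 0.245, 0.125 and 0.144, and -0.245 to 0.150 for different numbers). Col6a1+ replicate 2 with Col6a1- replicate 3, at 0.150, exceeded the same-numbered 0.125 and 0.144. Neither these values nor the labels settle whether the numbers mark pairs. The calls come from the group-only fit, with the replicate block given as an alternative. Alternatives changed the scaling, filter, pseudocount (0.1), tool (limma-voom), block, call rule and libraries. The values of 1 called pathway gene are not reported here.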

Additional observations from a re-analysis of the deposited data

How the results depend on the processing

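Members called higher and lower numbered 5 and 1. Scaling by library size alone gave 5 and 2, a minimum mean of 10 normalized counts 5 and 1, a pseudocount of 0.1 gave 2 and 1, limma-voom 5 and 3, and unadjusted p under 0.05 with an absolute log2 difference over 1 gave 9 and 11. The genes behind these counts changed. The pseudocount of 0.1 lost Il1r1, Il15ra and Il1rl2. Limma-voom lost Il15ra (adjusted p = 0.0571) and Il1rl2 (0.0537). It gained Il17d and Il27ra, both at low counts, on the higher side and Il18 and Il1f9 on the lower. The replicate block gave 0 and 0 (9 and 10 at an unadjusted p under 0.05), as it did over all genes, where 703 and 517 were called without it, and the block with the minimum mean gave 6 and 3. Leaving out a library gave 0 to 2 higher and 0 to 1 lower, with 0 in both directions without Col6a1- replicate 1 or 3, where all genes called numbered 11 and 1 and 102 and 14. Pathway genes, 4 higher and 0 lower, became 7 higher with the minimum mean, 0 with the replicate block, 8 with both, and 10 higher and 2 lower at the unadjusted rule, 1 lower by limma-voom, and 0 to 2 higher and 0 to 1 lower with a library left out. The cause of these shifts was not tested. Over single named genes, 380 values kept direction and side of the threshold, 67 lost the call, 12 gained it and 20 turned sign. The sign changes were in genes that were not called. With a library left out the log2 difference ran from -0.14 to 0.72 for Il11ra2, -0.26 to 0.49 for Il13ra1, -1.51 to 0.22 for Il15, -0.28 to 0.50 for Il17rc, -0.071 to 0.51 for Il17rd, -0.29 to 1.01 for Il17re, -0.66 to 0.73 for Il18bp, -1.54 to 1.68 for Il3ra and -0.12 to 0.58 for Il4ra. Il17rc was also -0.031 by library size alone and -0.035 by limma-voom. Over a few counts per library, as for Il23a, Il17d and Il27ra, the depth limits what can be shown.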
